A study of Mus musculus with 14 samples.

Results

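Loss of Prmt5 in adult blood progenitors was followed in 6 of the 14 libraries of the series, taken from LK cells, a sorted fraction of adult mouse blood-forming cells. These libraries were chosen by their labels. The 3 KO libraries came from Mx1-cre;PRMT5fl/fl mice and the 3 WT libraries from PRMT5fl/fl mice without the recombinase. All of these mice had been given poly(I:C), an inducer of interferon, and cells were collected 7 days after it, so interferon induction was shared by both genotypes and the comparison is of floxed alleles with and without Cre. Mx1-cre is switched on by interferon and is active in many tissues, including non-blood cells. The libraries of each genotype carry the letters A, B and C. Neither the ages of the mice nor whether each library was a separate mouse or pool is given in the labels, so p-values measure the spread between these libraries, which may be in part technical. The other 8 libraries are of fetal liver cells of stage E14.5, sorted as Ter119neg and Ter119pos, from PRMT5fl/fl embryos with or without Vav-cre, and serve below only as a comparison.

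PRMT5 is the main enzyme that adds symmetric dimethyl marks to arginines, on histones and on the Sm proteins of the splicing machinery, which it does in a complex with the adaptor WDR77. In mice its deletion from blood-forming cells is known to cause bone marrow failure. The tumour suppressor p53 is a transcription factor that is held low by the ubiquitin ligase MDM2 and by MDM4. When released it binds response elements in its target genes, and their products stop the cell cycle, start cell death, repair DNA or feed back on p53 itself. LK cells hold the myeloid, erythroid and megakaryocyte progenitors, which carry the receptor Kit and lack the surface antigens of mature blood cells.

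Some of the genes called higher in KO are known p53 targets, and 3 of them hold a match to the p53 response element next to their start. Promoter sequence, from 250 bases before to 50 after the annotated start (RefSeq, GRCm38.p6), was found for 110 of the 159 genes called higher in KO (1.15% of those tested) and 68 of the 91 called lower (0.661%), where called means an edgeR adjusted p under 0.05. The p53 response element is made of 2 adjacent decamers. Its consensus reads the same on both strands, so the strand of the gene was searched. Up to 2 mismatches were allowed, none of them in the core of a decamer (C, then A or T at both middle positions, then G). The element was found in 3 of 110 promoters of higher genes (2.73%), in 0 of 68 of lower genes and in 18 of 10159 of all tested genes with a promoter (0.177%). In a fit that also took the library letter as a block, it was found in 3 of 992 promoters of higher genes (0.302%) and 0 of 1387 of lower genes. The share over all 32851 promoters in that table was 0.158%. A match describes the letters in this window and is not a measured binding site. The 3 matches are printed 5′ to 3′ on the strand of the gene, with the 20 bases of the matching element in capitals, because these genes are among the called p53 targets described below.
Cdkn1a (chr17:29090908-29090967, plus strand, 1 mismatch): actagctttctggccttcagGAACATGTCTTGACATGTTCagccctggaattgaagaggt
Gtse1 (chr15:85859925-85859984, plus strand, 1 mismatch): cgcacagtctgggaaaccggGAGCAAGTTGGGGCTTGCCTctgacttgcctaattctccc
Zfp365 (chr10:67912686-67912745, minus strand, 2 mismatches): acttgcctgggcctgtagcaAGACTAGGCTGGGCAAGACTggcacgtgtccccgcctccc

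Total counts were between 19514550 and 30976961 per library. In both letter B libraries 18% (WT) and 23.4% (KO) of the counts were of the 18S rRNA gene Rn18s-rs5, and in the other 4 at most 0.179%. Both letter C libraries held the X-inactivation RNA Xist and Y-linked transcripts together, whereas the other 4 held Y-linked transcripts with at most 0.669 CPM of Xist (CPM stands for counts scaled to library size by TMM normalisation). Replication-dependent histone transcripts, which lack a poly(A) tail, summed to 465 (KO) and 594 (WT) CPM in letter B against 43.1 to 63.4 CPM in the others. The progenitor genes used as markers were present in every library. Kit was between 209 and 388 CPM, Myb between 442 and 631, and Mpo between 5292 and 15861, while Ly6a, which encodes the stem cell antigen Sca-1, was at most 1.62 CPM. Libraries of the same letter deviated together from their group means, so results fitted with the letter as a block are given where they change a call.

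Prmt5 itself (chr14:54507187-54517525 on GRCm38, minus strand) was measured at 11.7, 12.3 and 10.5 CPM in KO libraries A, B and C and at 110.2, 63.1 and 69.9 CPM in WT libraries A, B and C. Every KO library lay below every WT library. The log2 fold change was -2.81 (SE 0.28, edgeR adjusted p = 0.00669). Reads of exons outside the floxed segment still count, so the remaining level does not give the share of cells that kept the gene. The call was lost without KO library A, B or C (adjusted p = 0.0715, 0.0531 and 0.0611) and without the letter C pair (0.0965). Its log2 fold change was between -2.97 and -2.48 in all of these fits. Of the 12 other tested genes of the PRMT5 complex and its Sm substrates, none was called. They ranged from Lsm4 (-0.66, an Sm-like protein) to Gemin5 (0.54, a subunit of the SMN complex), and Gemin5 alone was called with the block (adjusted p = 0.0277). None of the 9 other arginine methyltransferase genes was called without or with the block (log2 fold changes from -0.48 for Mettl23 to 0.78 for Prmt2).

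Of 13771 genes tested by edgeR's quasi-likelihood test with genotype alone, 250 (1.82%) were called after Benjamini-Hochberg adjustment, of which 159 were higher (1.15%) and 91 lower (0.661%) in KO libraries. Of the higher genes, 111 changed over 4-fold and 42 over 16-fold, and of the lower genes 45 and 1. Higher genes mostly started from low levels, with a median of 1.50 CPM in WT and 15.5 CPM in KO. A WT mean under 1 CPM was found in 72 of the 159, against 1664 of all 13771 genes tested. A KO mean under 1 CPM was found in 16 of the 91 lower genes, against 1595 of all. The low count filter keeps a gene that is low in 1 genotype if it is expressed in the other. Lower genes started from a median of 19.9 CPM in WT, close to the 23.1 CPM of all genes tested, and stood at 4.32 CPM in KO. In all 250 the libraries of the genotypes did not overlap, which was true of 1559 genes upward (11.3%) and 1772 downward (12.9%) among all tested. With the letter as a block 3129 genes were called (22.7%), 1363 higher (9.9%) and 1766 lower (12.8%). The counts given below for lists under the block are to be read beside these shares.

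Leaving out any 1 of KO libraries A, B or C or WT library A reduced the higher calls to 36, 38, 33 and 30 and the lower calls to 1, 2, 3 and 3. Without WT library B they were 169 and 99, and without WT library C 78 and 56. In 26 genes, all higher in KO, the call remained whichever library was left out, among them Cdkn1a, Zmat3, Plk2, Zfp365, Eda2r, Tnfrsf10b, Sesn2, Sulf2, Egr1, Tnfsf4, Cd80, Mmp2 and Epha2. Without both letter B libraries 61 genes were higher and 10 lower, and without both letter C libraries 13 and 1.

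**Figure D1:**
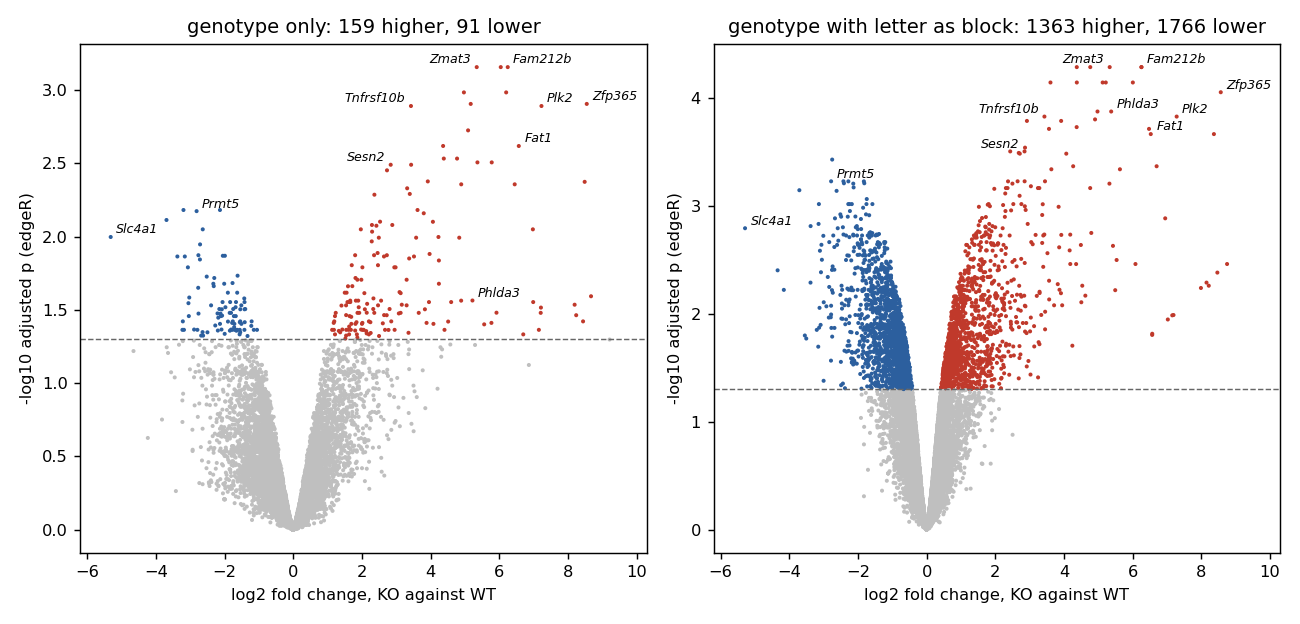
Each point is 1 of 13771 genes in LK cells. The x axis is the log2 fold change of KO against WT, the y axis is -log10 of the edgeR adjusted p, the dashed line marks 0.05, and red and blue points were called higher and lower. With genotype alone (left) 159 genes were higher and 91 lower, with the largest changes upward; with the letter as a block (right) the counts were 1363 and 1766.

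Among p53 targets that stop the cell cycle or feed back on p53, 7 of 14 rose and none fell, with a median log2 fold change of 2.22 against -0.09 over all genes. Cdkn1a encodes p21, the inhibitor of cyclin-dependent kinases. It was at 219.6, 373 and 232 CPM in KO libraries A, B and C and 9.55, 13.5 and 7.32 CPM in WT libraries A, B and C (log2 fold change 4.77, SE 0.38, edgeR adjusted p = 0.00293). The lowest KO library was thus far above the highest WT library, and the letter B library was the highest of its genotype in both. Zmat3, an RNA-binding protein induced by p53, was nearly the same within each genotype, at 189, 228 and 236 CPM in KO and 5.38, 4.7 and 5.95 CPM in WT (5.34, adjusted p = 6.95e-04).

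Zfp365, which protects fragile sites of the genome, had 5 counts in total over the WT libraries and 1990 over the KO libraries. Its levels were 22.6, 20.5 and 27.1 CPM in KO against 0.108, 0 and 0.0292 CPM in WT (8.55 on the log2 scale, SE 0.55, edgeR adjusted p = 0.00124). Plk2, a polo-like kinase of the centriole cycle, had 8 WT counts and stood at 14.46, 15.1 and 18.4 CPM in KO against 0.0812, 0.243 and 0.0583 CPM in WT (7.23). Both were thus close to silent in WT and at moderate levels in every KO library. Ccng1, cyclin G1, already measurable in WT at 49.4, 37 and 72.6 CPM, reached 309, 292 and 394 CPM in KO (2.64, adjusted p = 0.0136). Gtse1 (1.80), a microtubule-associated protein that acts back on p53, and the noncoding RNA Trp53cor1 (3.39), also called lincRNA-p21, made up the 7. Trp53cor1 lies next to Cdkn1a on chromosome 17, on the opposite strand. Summed over the list, the level was 1107, 1274 and 1329 CPM in KO libraries A, B and C and 218, 227 and 273 CPM in WT.

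Mdm2, the main brake on p53, was at 91.6, 80.1 and 118 CPM in KO and 34.6, 25.2 and 51.9 CPM in WT. The libraries did not overlap, but the difference missed the threshold (1.37, edgeR adjusted p = 0.0829; 0.00197 with the block). With the block 10 of the 14 members were higher and none lower. Leaving out 1 library gave 4 (WT A), 5 (KO A, B or C), 7 (WT C) or 8 (WT B) higher members, and leaving out both letter C libraries 4. None of 12 regulators of p53 was called, Trp53 being at 0.44 (adjusted p = 0.464) and Mdm4 at 1.00 (0.248; 0.0171 with the block).

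Of the p53 targets linked to cell death, 6 of 15 rose and none fell (median 1.91). Eda2r, a receptor of the tumour necrosis factor family, was at 22.6, 18.3 and 27.7 CPM in KO and 0.243, 0.243 and 0.408 CPM in WT (6.20, SE 0.36, edgeR adjusted p = 0.00103). Tnfrsf10b, the receptor of the death ligand TRAIL, varied little within a genotype, at 23.9, 22.2 and 21.3 CPM in KO and 2.19, 2.11 and 1.95 CPM in WT (3.43). Phlda3, an inhibitor of the kinase AKT, differed more between letters. Its levels were 64.6, 139 and 57.2 CPM in KO and 1.54, 5.03 and 0.845 CPM in WT (5.22, adjusted p = 0.0273), and in each genotype the letter B library was clearly above the other two. Of the BH3-only genes, whose products trigger mitochondrial death, Pmaip1 (NOXA) rose (2.35, adjusted p = 0.0134), while Bid was at -0.54 (0.315; 0.0378 with the block). Bbc3, which encodes PUMA, was at 24.7, 57 and 24.9 CPM in KO and 3.52, 10.2 and 2.54 CPM in WT, again highest in letter B of each genotype, and missed the threshold with genotype alone (2.74, adjusted p = 0.0809; 5.91e-04 with the block). Trp53inp1 (3.08), a stress protein that promotes p53 activity, and the nuclease Aen (1.18) were the other two. With the block 10 members were higher and 2 lower (Bid and Dram1). Leaving out KO library A, B or C or WT library A left 2 higher members each, Eda2r and Tnfrsf10b. Without the letter B pair Eda2r, Tnfrsf10b, Phlda3 and Bbc3 were called, and without the letter C pair Eda2r, Tnfrsf10b and Trp53inp1.

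Of 20 p53 targets of repair and metabolism, 6 rose and 1 fell (median 0.59), and with the block 11 were higher and 4 lower. Sesn2, a stress-induced inhibitor of the growth kinase complex mTORC1, was at 64.6, 75.6 and 73.4 CPM in KO and 10.5, 11.5 and 7.9 CPM in WT (2.84, SE 0.24, edgeR adjusted p = 0.00323). Sulf2, a sulfatase that trims heparan sulfate outside the cell, was at 121, 80.6 and 137 CPM in KO and 6.9, 4.21 and 5.19 CPM in WT (4.37). Ercc5, an endonuclease of nucleotide excision repair (2.47), the thiamine transporter Slc19a2 (2.42), the spindle protein Psrc1 (2.89) and the epoxide hydrolase Ephx1 (3.30) also rose. Fdxr, the ferredoxin reductase of mitochondria and a p53 target in human cells, went the other way. It was at 9.4, 10.1 and 8.24 CPM in KO and 27.6, 34.4 and 18.8 CPM in WT (-1.54, adjusted p = 0.0449). The call of Fdxr was lost with RLE normalisation (adjusted p = 0.0521), with protein-coding normalisation (0.0502) and without each library but WT C (0.0546 to 0.216), with the direction unchanged. Calls upward in this list fell to 3 without KO A or KO C, to 4 without KO B or WT A, and to 0 when the letter C pair was left out.

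**Figure D2:**
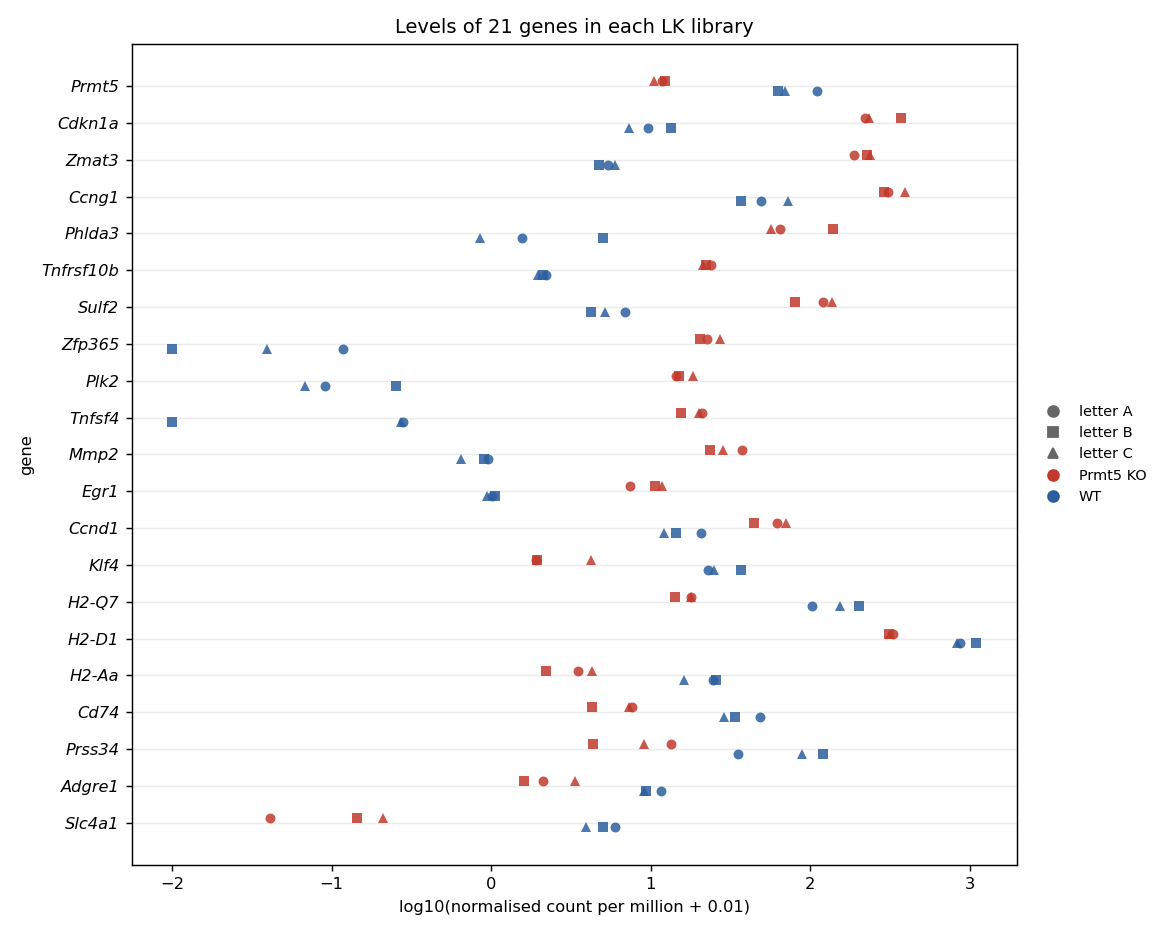
Levels of 21 genes in each of the 6 LK libraries, as log10 of CPM plus 0.01, with KO in red, WT in blue and the letter given by the marker shape. KO and WT libraries do not overlap for any of these genes; Zfp365 and Tnfsf4 are at 0 CPM in WT library B, the leftmost points.

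Genes of the tumour necrosis factor superfamily were also among the strongest changes, with 5 of 26 higher and none lower, although the list median was -0.20 (from -0.26 with KO A left out to 0.078 with WT B left out). Eda2r and Tnfrsf10b are p53 targets described above. The ligand Tnfsf4, which binds OX40 on T cells, was at 21, 15.4 and 20.0 CPM in KO and 0.271, 0 and 0.262 CPM in WT (6.45, SE 0.58, edgeR adjusted p = 0.00439). Tnfrsf18, the costimulatory receptor GITR, was at 24.8, 48.6 and 21.7 CPM in KO and 2.38, 4.94 and 3.88 CPM in WT (3.10, adjusted p = 0.0239), and Tnfsf8, the CD30 ligand, rose by 1.92. The death receptor Fas, at 5.09, 5.55 and 7.22 CPM in KO and 0.839, 1.46 and 2.19 CPM in WT, did not overlap between genotypes and missed the threshold with genotype alone (adjusted p = 0.0634; 0.00395 with the block). With the block 7 members were higher and 4 lower, the latter Tnfsf13b (0.56 without WT library C), Tnfsf13, Tnfrsf14 and Tnfrsf1a. Without KO library A, B or C, or WT library A or C, 3 members were called, and without both letter C libraries 2.

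In the list of cell surface and matrix genes 7 of 27 were higher and none lower (median 0.07; from -0.12 with WT B left out to 0.40 with WT C left out). Fat1, an atypical cadherin, was at 12.7, 18.1 and 16 CPM in KO and 0.216, 0.243 and 0.0583 CPM in WT (6.57, edgeR adjusted p = 0.0024). Epha2, an ephrin receptor tyrosine kinase and p53 target, was at 56.9, 43.8 and 57.3 CPM in KO and 2.16, 0.973 and 1.37 CPM in WT (5.09). Cd80, the costimulatory ligand of CD28 on T cells, was at 9.53, 11.2 and 16.4 CPM in KO and 0.325, 0.243 and 0.612 CPM in WT (4.89). These 3 were under 3 CPM in every WT library and above 9 CPM in every KO library. Plxna1 (2.73), a semaphorin receptor, Selp (2.73), the platelet and endothelial selectin, the collagen chain Col1a2 (2.81) and the adhesion molecule Icam1 (1.54) completed the 7. With the block 10 were higher and 6 lower. The count was 4 with KO A, KO C or WT A left out, 5 with KO B or WT C, and 2 with the letter C pair. Endothelial and stromal markers, which share some of these genes, summed to 678, 464 and 710.4 CPM in KO and 757, 502 and 722 CPM in WT, with overlap, and 6 of 15 could be tested, of which Col1a2 was called.

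Among the genes with the highest fold changes outside the lists above, Ahnak2, a large scaffold protein, had 2 counts over the WT libraries and 821 over the KO libraries (5.86, 13.5 and 12.2 CPM in KO). The ratio of its levels was 416, with an exact 95% counting interval of 115 to 3438. Mmp2, a secreted gelatinase, was at 37.3, 23.4 and 28.3 CPM in KO and 0.947, 0.892 and 0.641 CPM in WT (5.17, edgeR adjusted p = 0.00124). Fam212b (6.25), Fam198b (6.04), the extracellular protein Hmcn2 (5.78) and Tcrg-C1 (4.83), a constant segment of the gamma T cell receptor, rose as well. Fam212b was at 35, 28.5 and 31.4 CPM in KO and 0.433, 0.243 and 0.496 CPM in WT.

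Of 27 immediate early genes, which respond first to growth signals, 3 rose and 1 fell, and with the block 7 were higher and 5 lower. Their median of 0.10 changed sign with 1 library (from -0.19 with KO B left out to 0.55 with WT B left out). Egr1 was at 7.43, 10.6 and 11.7 CPM in KO and 1, 1.05 and 0.933 CPM in WT (3.32, edgeR adjusted p = 0.00467). Dusp6, a phosphatase that limits ERK signalling, was at 47.4, 37.5 and 49.5 CPM in KO and 16.8, 14.8 and 15.8 CPM in WT (1.50), and the related Dusp4 had only 6 counts in WT against 61 in KO. The gene that fell was Klf4, treated next. Only Egr1 among the higher ones kept its call without KO library A, B or C, WT library A or WT library C.

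The transcription factor Klf4, which drives monocyte differentiation, fell in all 3 KO libraries. It was at 1.91, 1.94 and 4.24 CPM in KO and 23, 37 and 24.9 CPM in WT (-3.37, SE 0.41, edgeR adjusted p = 0.0136). Its highest KO library, C, was still far below its lowest WT library. The adjusted p rose to 0.0976 with KO A left out, 0.0758 with KO B, 0.0682 with WT A and 0.0673 with the letter B pair left out, which ended the call. Of 15 myeloid transcription factors Klf4 alone fell and Egr1 alone rose (median -0.88, and -0.33 without WT library B). Irf8, which sets monocyte and dendritic fate, was at 216, 152 and 189 CPM in KO and 537, 359.8 and 325 CPM in WT, without overlap (-1.13, adjusted p = 0.109; 0.00644 with the block). With the block 7 of the 15 were lower and 1 higher. In bulk samples fewer cells of a type and less RNA per cell cannot be told apart. Of 31 cytokine and growth factor receptors none was called by edgeR (median -0.14; from -0.33 with WT B left out to 0.12 with WT C left out). Csf2ra, a receptor chain for GM-CSF, was at 7.99, 19.1 and 25.2 CPM in KO and 54.7, 138 and 92.1 CPM in WT (-2.44, adjusted p = 0.0633; 0.00126 with the block), and 7 receptors were lower and 5 higher with the block.

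Of the 35 lists, that of antigen presentation held the most lower calls, 9 of 31, with none higher and a median of -1.18. Both classes of the major histocompatibility complex were among them. Class I molecules present peptides on nearly all cells. The class I gene H2-D1 was at 330.5, 314 and 317 CPM in KO and 867, 1101 and 832 CPM in WT (-1.54, SE 0.26, edgeR adjusted p = 0.0378). The 3 KO libraries were nearly equal and all below the WT libraries. H2-K1, at 393, 428 and 373 CPM in KO and 789.6, 1338 and 721 CPM in WT, and their shared light chain B2m, at 434, 489.5 and 496 CPM in KO and 874, 1756 and 1051 CPM in WT, did not overlap either but missed the threshold with genotype alone (adjusted p = 0.109 and 0.0994, and 0.00852 and 0.00876 with the block).

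Class Ib genes were called lower as well. H2-Q7 was at 18, 14.1 and 18 CPM in KO and 102, 204 and 154 CPM in WT (-3.20, SE 0.31, edgeR adjusted p = 0.00657), with H2-Q5 at -2.76, H2-Q6 at -2.71 and H2-T22 at -1.43. The H2-Q genes lie next to each other on chromosome 17 and are close copies, so how reads were split among them is uncertain.

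Class II molecules are made mainly by antigen-presenting cells. The chain H2-Aa was at 3.51, 2.21 and 4.26 CPM in KO and 24.5, 25.6 and 16.2 CPM in WT (-2.72, edgeR adjusted p = 0.0143), and Cd74, the invariant chain, at 7.68, 4.28 and 7.31 CPM in KO and 48.2, 34 and 28.7 CPM in WT (-2.52). H2-Eb1 (-2.08) and the lysosomal protease Ctss (-1.56), which cuts the invariant chain, were the others called. Over all matched members the summed level was 2423, 2469 and 2358 CPM in KO libraries A, B and C against 4222, 6618 and 4111 CPM in WT. With the block 18 members were lower and 2 higher, the latter Nlrc5, the activator of class I genes (0.74), and H2-Ob (1.12). Without KO library A or C, or both letter C libraries, 0 members were called, 1 was called with KO B left out, 2 with WT A, 6 with WT C and 3 with the letter B pair left out. Over the fits without 1 KO library H2-Q7 had log2 fold changes from -3.25 to -3.09, with adjusted p of 0.0524 to 0.0632.

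Markers of mature myeloid cells, which the gate could hold, were lower in sum. Of 24 monocyte, macrophage and dendritic genes 3 fell and none rose (median -0.91), and their summed level was 1436, 1219 and 1985 CPM in KO and 3466, 4938 and 3163 CPM in WT, without overlap. Adgre1, which encodes F4/80, was at 2.1, 1.61 and 3.35 CPM in KO and 11.5, 9.4 and 9.04 CPM in WT (-2.07, edgeR adjusted p = 0.0346). Ly86, a partner of a toll-like receptor homologue, was at 27.7, 27.2 and 29.2 CPM in KO and 75.5, 92.6 and 56 CPM in WT (-1.41), and Ctss was the third. Ly6c2, the monocyte antigen Ly6C, was at 212, 362 and 452 CPM in KO and 1422, 3365 and 1230.2 CPM in WT, and missed the threshold with genotype alone (-2.55, adjusted p = 0.0614; 0.00549 with the block). With the block 12 were lower and 1 higher. Without any of KO libraries A, B, C and WT library A, 0 were called, and 1 without WT library C. The part of these markers in the lower antigen presentation genes was not tested.

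Of 22 neutrophil granule genes none was called without the block, while 17 were lower with it and none higher. Of all genes tested, 12.8% were lower with the block. All 22 were below 0 on the log2 scale, as were 7792 of the 13771 genes tested. In 5 of the 22 the KO libraries lay below the WT libraries without overlap, as in 12.9% of all genes tested. The median of the 22 genes, -2.12, depended on the letter C libraries. It ranged from -3.62 with KO C left out to -0.21 with WT C left out. Their summed level was 9933, 11092 and 19632 CPM in KO libraries A, B and C and 24109, 51487 and 57908 CPM in WT. Elane, neutrophil elastase, was at 878, 1491 and 1247 CPM in KO and 3274, 11274 and 2044 CPM in WT (-2.20, edgeR adjusted p = 0.162; 0.0222 with the block). Mpo, the myeloperoxidase of early granules, was at 6130.5, 5292 and 7923 CPM in KO and 15249, 15861 and 10477 CPM in WT (-1.10, adjusted p = 0.239; 0.0401 with the block). Fcnb, a ficolin of later granules, was at 3.85, 2.61 and 39.3 CPM in KO and 39.9, 242 and 369 CPM in WT (-3.82, adjusted p = 0.177; 0.006 with the block). The genotypes did not overlap for these 3 genes, although KO library C was just below WT library A for Fcnb. DESeq2, without a block, called 4 of the 22 lower, and 535 of all 13771 genes tested.

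Of 19 mast cell, basophil and eosinophil genes 4 fell and none rose. Their median was -0.70, and it was -0.93 with WT B left out, -0.44 with KO B left out and -0.20 with WT C left out. The basophil and mast cell protease Prss34 was at 13.4, 4.35 and 9.04 CPM in KO and 35.4, 121 and 88.5 CPM in WT (-3.18, edgeR adjusted p = 0.0432). The eosinophil ribonuclease genes Ear6 (-3.04) and Ear2 (-2.50), which are members of a family of close copies, and the granule protein gene Prg3 (-2.64) were the others. Summed levels were 624, 361 and 487 CPM in KO and 1131, 2413 and 965 CPM in WT. All 4 calls were lost without any of KO libraries A, B and C and WT library A, and 8 members were lower with 1 higher under the block. Ear2 lost its call when the trend of fold change on transcript length was removed (-2.14, adjusted p = 0.108).

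Among the other genes that fell most, Csad, an enzyme of taurine synthesis, was at 1.97, 1.74 and 1.42 CPM in KO and 11.3, 12.1 and 8.63 CPM in WT (-2.63, edgeR adjusted p = 0.00891). Matk, a kinase that inactivates Src family kinases, was at 10.5, 11.7 and 10.1 CPM in KO and 51.6, 72.4 and 35 CPM in WT (-2.30). Both were separated by genotype with little spread among the KO libraries. The carbonyl reductase Dhrs4 (-2.33) and the semaphorin coreceptor Nrp2 (-2.39) also fell.

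**Figure D3:**
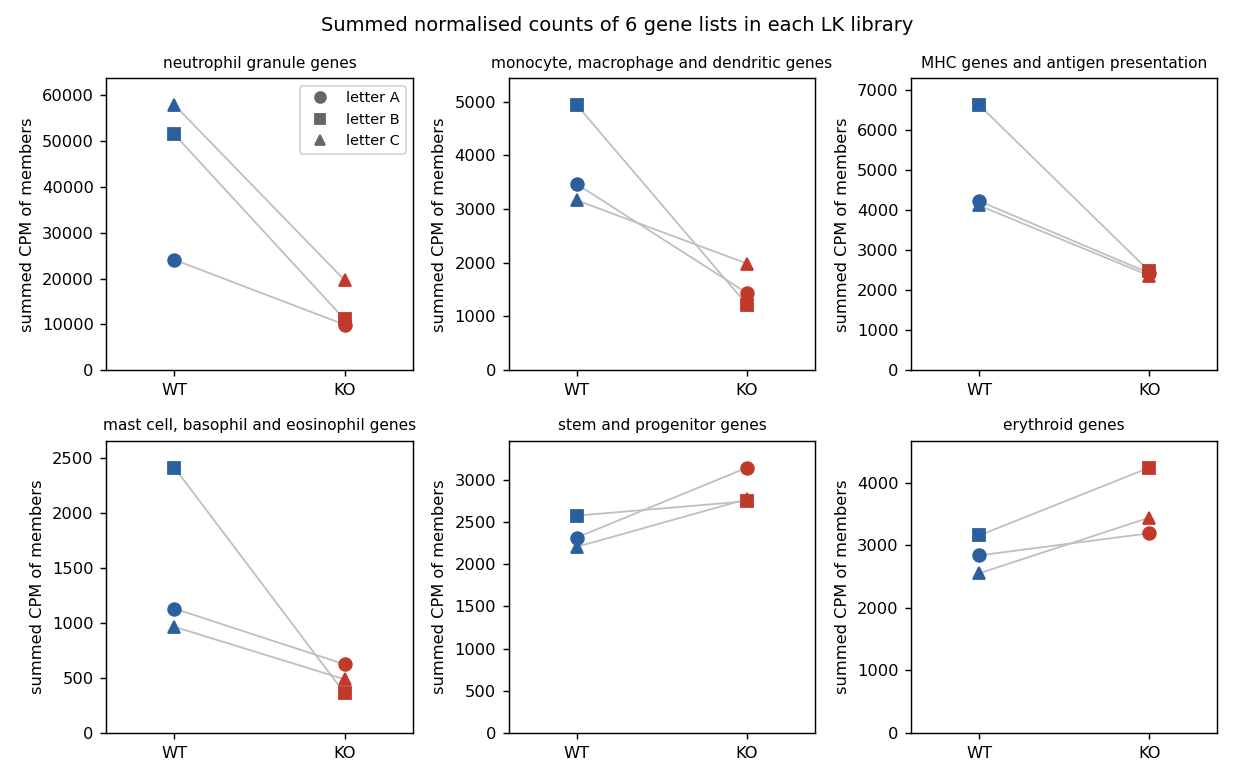
Summed CPM of the matched members of 6 gene lists in each LK library, WT in blue and KO in red, with the marker shape giving the letter and grey lines joining libraries of the same letter. The 3 KO libraries lie below the 3 WT libraries for the neutrophil, monocyte, antigen presentation and mast cell lists and above them for the stem and erythroid lists, where the sums weight abundant genes most.

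Of 39 erythroid genes 1 fell and none rose, and their median of -0.10 was close to that of all genes (from -0.30 with KO B left out to 0.098 with KO A left out). Their summed level, in contrast, was above WT in every KO library, at 3194, 4243 and 3444 CPM in KO libraries A, B and C and 2839.9, 3159 and 2552 CPM in WT. The one that fell was Slc4a1, the anion exchanger of the red cell membrane, with the most negative log2 fold change of all called genes. It was at 0.0308, 0.134 and 0.199 CPM in KO and 6.01, 5.03 and 3.91 CPM in WT (-5.32, SE 0.59, edgeR adjusted p = 0.01). The next most negative erythroid gene was the globin gene Hba-a2 (-1.92, adjusted p = 0.238, and 0.00164 with the block). The carbonic anhydrase Car1 was at 779, 972 and 830.0 CPM in KO and 399, 449 and 405 CPM in WT (1.04, adjusted p = 0.0917, and 0.00662 with the block). The ankyrin Ank1 was at 0.87 (adjusted p = 0.129, and 0.0224 with the block). With the block 5 erythroid genes were higher and 12 lower, the latter including the heme synthesis genes Uros, Ppox and Urod. The call of Slc4a1 was lost without KO library B (adjusted p = 0.062), WT library A (0.0691), both letter B (0.0596) or both letter C libraries (0.0812).

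On the side of early cells, 2 of 38 stem and progenitor genes rose and none fell, with a median of 0.44 (0.27 without KO library A) and 13 higher, none lower with the block. Slamf1, which encodes CD150, was at 4.1, 3.35 and 5.06 CPM in KO and 1.11, 0.811 and 0.991 CPM in WT (2.09, edgeR adjusted p = 0.0313), and Egr1 was the second. Eng, endoglin, a receptor for transforming growth factor beta, was at 143, 148 and 143 CPM in KO and 81.1, 69.8 and 60.8 CPM in WT (1.04, adjusted p = 0.0588; 0.00469 with the block). Kit (0.48), Cd34 (0.30) and Myb (0.09), taken as progenitor markers, were not called without or with the block. Without KO library A, B or C or WT library A or C the list held 1 call, Egr1.

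Of 21 megakaryocyte and platelet genes 3 rose and none fell. Their median was 0.24 and changed sign with 1 library (from -0.22 with KO A left out to 0.46 with WT B left out). Selp was at 40.8, 19.9 and 34.2 CPM in KO and 4.55, 4.21 and 5.54 CPM in WT (2.73, edgeR adjusted p = 0.0134). The von Willebrand factor receptor subunit Gp5 (2.01) and the thrombin receptor F2r (2.02) were the others, and 7 were higher with none lower under the block. Calls in this list were 0 without KO library A, KO library C or WT library A, 1 with KO B left out and 2 with WT C left out.

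No lymphoid gene of 22 passed without the block, by edgeR, and 8 were higher and 1 lower with it. The median of 0.86 rested on KO library A, being -0.025 without it. Dntt, the terminal transferase of early lymphoid cells, was at 266, 29 and 33.6 CPM in KO libraries A, B and C and 23.7, 2.51 and 2.39 CPM in WT libraries A, B and C. Each KO library was far above the WT library of its letter. Letter A was by far the highest in both genotypes, and WT library A was only just below KO library B. The log2 fold change was 3.51 (SE 1.25, edgeR adjusted p = 0.213; 7.18e-05 with the block). Rag1 (2.65), a recombinase of antigen receptor genes, and Il7r, the interleukin 7 receptor, also passed with the block and not with genotype alone, and Rag1 was at -0.039 without KO library A. Il7r was at 7.12, 0.535 and 1.39 CPM in KO and 1.06, 0.162 and 0.292 CPM in WT, again highest in letter A.

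**Figure D4:**
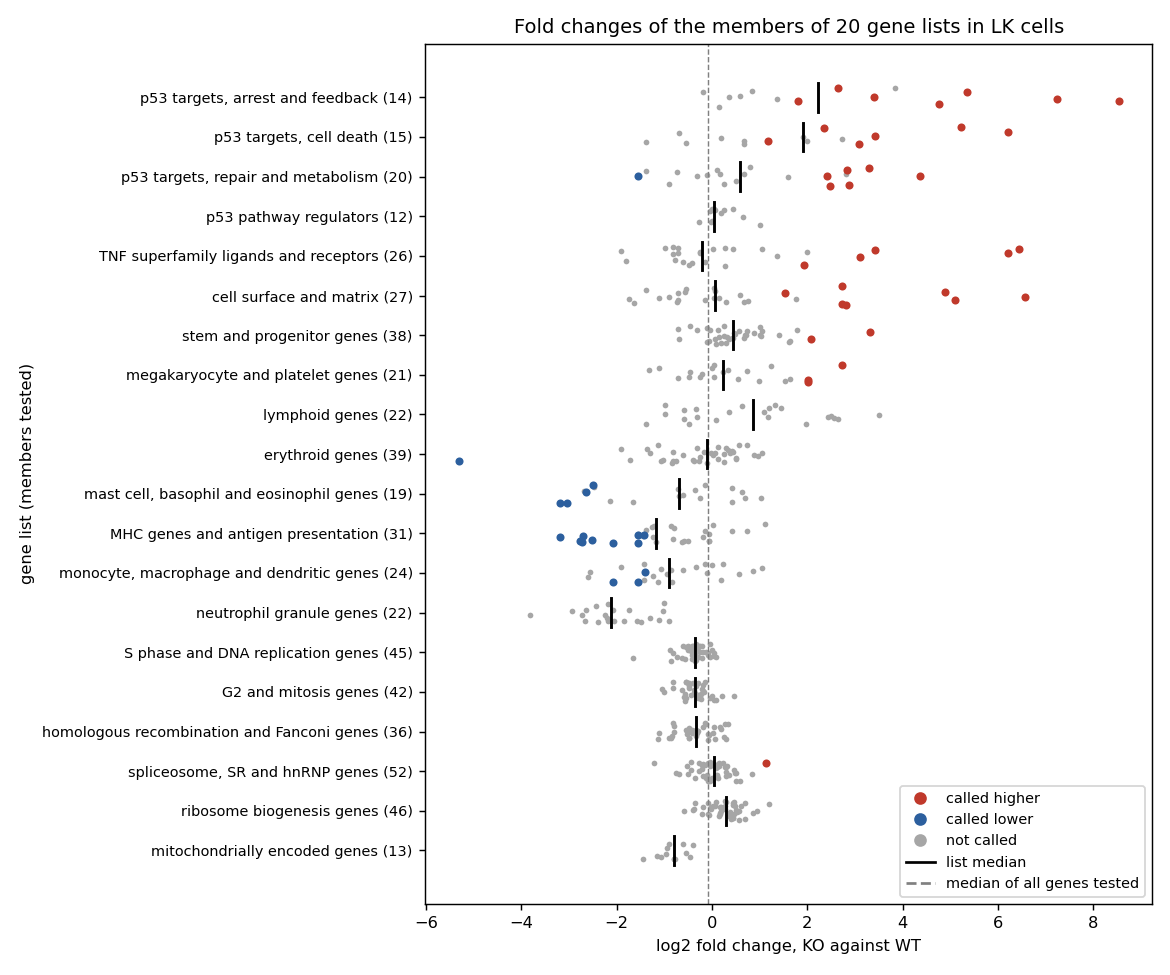
Log2 fold changes of KO against WT for the tested members of 20 gene lists in LK cells, with the number tested in brackets, called genes in red (higher) and blue (lower), list medians as black bars and the median of all genes tested (-0.09) as a dashed line. The p53 target lists of arrest and cell death lie farthest to the right, at medians of 2.22 and 1.91, and the neutrophil granule list farthest to the left, at -2.12, which becomes -0.21 without WT library C.

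Of the cell cycle lists, calls with genotype alone were limited to Cdkn1a, Ccnd1 and Ccnd2. Of 30 cyclins, kinases and inhibitors 3 rose and none fell, while with the block 5 were higher and 9 lower (median -0.40, and -0.11 without WT library C). Ccnd2, cyclin D2, was at 332, 328 and 351 CPM in KO and 139.8, 119.6 and 123 CPM in WT (1.40, edgeR adjusted p = 0.0295), and Ccnd1, cyclin D1, at 62.3, 44.6 and 70.2 CPM in KO and 20.7, 14.4 and 12.1 CPM in WT (1.91). Cyclins D1 and D2, which start the cell cycle, thus rose beside p21, which stops it. Ccnd1 and Ccnd2 lost their calls without each library but WT B. Of 45 replication genes and 42 mitosis genes none was called by edgeR (medians -0.35 and -0.36), and 10 of each were lower and none higher with the block. The median of the mitosis genes ranged from -0.51 with KO C left out to 0.031 with WT C left out. Thymidine kinase Tk1, at 55.8, 64.4 and 51.6 CPM in KO and 147, 268 and 128 CPM in WT, was the replication gene with the smallest p (-1.66, adjusted p = 0.0567; 0.00267 with the block).

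The study's title names DNA repair by homologous recombination and splicing, and counts per gene show the levels of such genes and not their splicing. Of 36 homologous recombination and Fanconi genes none was called by edgeR, and 9 were lower with none higher under the block (median -0.33, and -0.073 without WT library C). Fancg, of the Fanconi core complex, was at 13.4, 12.6 and 18.7 CPM in KO and 31.5, 31.4 and 33.8 CPM in WT (-1.11, adjusted p = 0.0664; 0.00537 with the block). Of 18 genes of the TIP60 acetyltransferase complex none was called and 1, Mbtd1 (0.75), passed with the block. Of 52 spliceosome, SR and hnRNP genes Prpf3, a protein of the U4/U6 particle, was the single call, at 87.8, 71.6 and 92.2 CPM in KO and 38.3, 35.6 and 40.8 CPM in WT (1.13, adjusted p = 0.0432). The helicase Ddx17, at 132, 95.6 and 128 CPM in KO and 288, 232 and 308 CPM in WT, passed with the block (-1.22, 0.00242). Under the block 4 of the 52 were higher and 2 lower. Of all genes tested 9.9% were higher and 12.8% lower with it, so the block counts of the splicing and TIP60 lists do not stand out. Prpf3 lost its call without each single library (0.0601 to 0.228) and without the low count filter (0.0744).

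Of 46 ribosome biogenesis genes none was called by edgeR, and 15 were higher with none lower under the block. Above 0 on the log2 scale were 35 of the 46, against 5979 of the 13771 genes tested (list median 0.29, and 0.47 without WT library A). Rrn3, the initiation factor of RNA polymerase I, was at 123, 111 and 119 CPM in KO and 64.7, 37.5 and 51.7 CPM in WT (1.20, edgeR adjusted p = 0.0639; 0.00395 with the block). All 13 mitochondrially encoded genes were below 0 (median -0.80), none called and 8 lower with the block. Of 32 replication-dependent histone genes none was called and 8 were lower with the block. Of 49 cytosolic ribosomal protein genes none was called in either fit. Interferon response genes, of interest because both genotypes had received poly(I:C), had no call among 44 (median -0.28, and 0.12 without WT library C). Under the block 5 were higher and 3 lower, and 0 were called by DESeq2 or limma-voom. Over all genes tested the block called 9.9% higher and 12.8% lower. The interferon counts were near the first share and under the second. Of 32 ATF4 targets Sesn2 rose and Pycr1, an enzyme of proline synthesis, fell (-1.90, adjusted p = 0.038), with 3 higher and 4 lower under the block. Of 31 lysosome genes the protease Ctsl rose (1.20) and Ctsh fell (-1.69), and 10 were lower with 1 higher under the block (median -0.42). Of 14 Bcl2 family genes Pmaip1 alone was called, with 4 higher and 3 lower under the block. Of 33 cytoskeleton genes, of which 5 were higher and 4 lower with the block, Ahnak2 and Dst, a plakin linker (1.64), rose, and Dst lost its call with the length trend described next removed (1.19, adjusted p = 0.0838).

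Higher and lower genes differed in transcript length. The longest annotated transcript had a median of 3581 bases in the 159 higher genes, 2188 in the 91 lower genes and 3157 in all genes tested. Across genes, divided into 8 bins of length, the median log2 fold change went from -0.37 in the shortest (median 876 bases) to 0.22 in the longest (7488 bases). Spearman's rho was 0.29 over 13704 genes, which share the same 6 libraries and are not independent replicates. The longest bin held 29 higher and 1 lower gene and the shortest 10 of each. With that trend removed 274 genes were higher and 200 lower, and the list medians of histone genes moved from -0.94 to -0.40 and of cytosolic ribosomal protein genes from -0.13 to 0.20, while the p53 arrest list held 8 calls. Single libraries moved these medians further. The histone median ranged from -3.56 with KO B left out to 1.33 with WT B left out, and the ribosomal protein median ranged from -0.39 with WT C left out to 0.37 with WT B left out.

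The fetal fractions, with 2 libraries of each genotype, share no library with the LK comparison and come from other mice with another Cre. Of the 154 LK higher genes also tested there, 113 (73.4%) were called higher in Ter119neg cells, against 9.3% of 13042 genes tested in both, and 0 were called lower. These are 9.32% of the 1213 genes higher in Ter119neg. Of 85 LK lower genes 58 (68.2%) were called lower in Ter119neg, against 10.8% of all, and 0 higher, making up 4.1% of the 1414 lower there. In Ter119pos, the more mature red cell precursors, 108 of the higher genes (70.1%, against 26.2% of all) were called higher. Another 7 were called lower (4.55%, against 29.3% of all). Of the lower genes 34 (40%, against 29.3% of all) were lower there and 5 (5.88%, against 26.2% of all) were higher. Those 5 were H2-D1, H2-T22, Ptgr1, Rogdi and Agtrap, named here because their calls were opposite. By their mouse numbers, the KO A, KO B and WT B libraries of the fetal fractions came from the same animals. The fetal fractions are thus not independent of each other. Genes called in the same direction in LK and in both fetal fractions were 96 of the 154 higher genes (62.3%, against 5.39% of all) and 26 of the 85 lower genes (30.6%, against 5.05%). Cdkn1a, for example, had log2 fold changes of 4.77, 3.87 and 7.70 in LK, Ter119neg and Ter119pos, and Zmat3 of 5.34, 3.30 and 5.60. Fdxr was lower in Ter119neg as well (-1.58, edgeR adjusted p = 1.95e-04).

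Some genes called in LK were not called in Ter119neg. Ccnd1, at 1.91 in LK, was at -0.29 (edgeR adjusted p = 0.234) in Ter119neg and 0.28 (0.386) in Ter119pos. The class Ib gene H2-Q7 was at -0.55 (0.602) and 0.35 (0.882), and Ear6 at 0.25 (0.334) and -0.35 (0.702). H2-Q7 reached only 0.66 CPM in the fetal libraries, and Ear6 only 0.36 CPM in Ter119pos. At such low levels a missing call says little about an effect. Slc4a1 was at 0.28 (0.361) in Ter119neg and lower in Ter119pos, where it is a mature red cell gene (-1.48, 4.33e-05). The differences of effect between LK and fetal cells were not tested, since tissue, age, Cre, kit and table all differ between them.

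**Figure D5:**
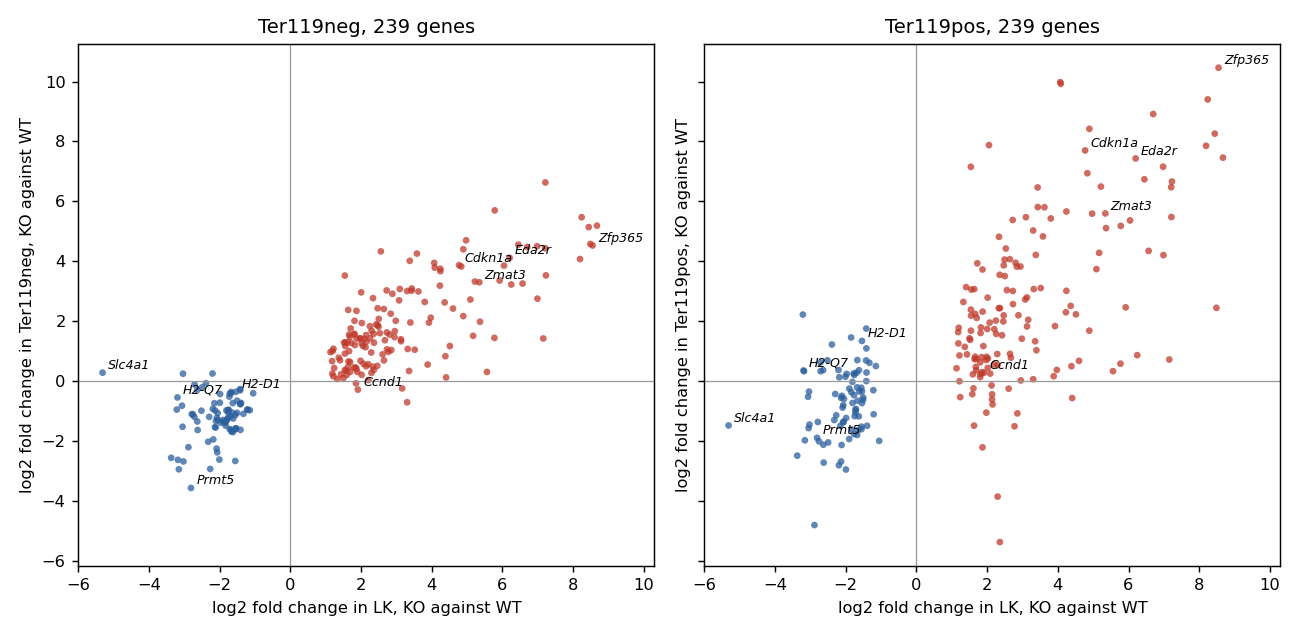
Log2 fold changes in LK (x axis) and in Ter119neg (left) or Ter119pos (right) fetal cells (y axis) for the 239 genes called in LK and tested in both tables, red for higher and blue for lower in LK. In Ter119neg the higher genes lie mostly above 0 and the lower genes mostly below it; in Ter119pos some, such as H2-D1, lie on the opposite side.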

How the data were processed

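RNA of sorted LK cells was extracted with the Qiagen RNeasy Plus Micro kit and made into libraries with the Illumina TruSeq Total Stranded kit, per the labels' protocols. The deposited values of the 6 LK libraries are expected counts per gene from RSEM, neither normalised nor whole, in 1 table of 45706 genes. STAR 2.5.3, RSEM and the builds GRCm38 and mm10 are named in the submitters' processing notes. Counts were rounded to whole numbers. Genes passing edgeR's filterByExpr (13771) were fitted with R 4.3.3 and edgeR 4.0.16 (quasi-likelihood test, TMM normalisation, edgeR's default prior count for fold changes). The fit used the LK libraries alone, with genotype as the sole term. A prior count of 2 was used only for the log2 CPM values behind the correlations between libraries and the removal of the length trend. Calls used a Benjamini-Hochberg adjusted p under 0.05. The fetal table was fitted separately (15566 genes, 2 libraries a group), so levels are not compared across tables.

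Letters paired the libraries. Deviations from the genotype means correlated at 0.604 (A), 0.719 (B) and 0.73 (C) within letters and at most -0.03 between letters, across genes. Deviations cancel out within a genotype, so positive values within letters entail, on balance, negative ones between letters. The values between letters are thus not separate evidence of pairing. The letters come from the library titles, which do not say what they mark. Alternatives were the letter as block, RLE and protein-coding normalisation, no filter, DESeq2 1.42.0, limma-voom (limma 3.58.1), left-out libraries or letters, and removal of ribosomal RNA genes or of the trend on transcript length (lowess span 0.3). The fits were also run on counts simulated with known changes but without a letter effect. That run does not bear on how the calls depend on the letters.

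Named were Prmt5, the 15 called genes per direction with the largest change at a mean of at least 5 CPM, the 4 members with the smallest p of each of 35 gene lists, and all called members, except a few results that are not reported here. Mdm2, Fas, Bid, Dram1, B2m, H2-K1, H2-Ob, Nlrc5, Ly6c2, Mpo, Kit, Cd34, Myb, Tnfrsf1a, Tnfrsf14, Tnfsf13, Tnfsf13b, Ank1, Ppox, Urod, Hba-a2, Rag1 and genes named for opposite fetal calls or in the closing part fall outside that rule and were chosen after their values were seen. Members and lists were chosen with earlier results of these data known. Symbols and coordinates come from the files and GENCODE M21, promoters from RefSeq.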

Additional observations from a re-analysis of the deposited data

Results flagged for a closer look

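H2-D1, the class I histocompatibility gene that was lower in all 3 KO libraries of LK cells (-1.54), was called higher in Ter119pos fetal cells (log2 fold change 1.34, edgeR adjusted p = 7.31e-06) and was at -0.36 (0.084) in Ter119neg. H2-T22, of class Ib, went from -1.43 in LK to 0.69 (0.00529) in Ter119pos. The reductase gene Ptgr1, at 29.6, 26.2 and 41.9 CPM in KO and 78.7, 101 and 82 CPM in WT of LK cells (-1.42), was at 1.75 (4.85e-05) in Ter119pos. Rogdi was at -1.85 in LK and 1.46 (0.001) in Ter119pos, while in Ter119neg it was lower as in LK (-1.39, 8.39e-04). Agtrap, whose product binds the angiotensin receptor, showed the same pattern, with -1.33 in LK, 0.61 (0.00753) in Ter119pos and -1.09 (1.99e-04) in Ter119neg. These genes are listed because they were called in opposite directions in LK and Ter119pos cells. They are 5 of 85 LK lower genes (5.88%), a smaller share than the 26.2% of all genes called higher in Ter119pos. The 7 LK higher genes called lower there (4.55%, against 29.3% of all) are not named. Whether the effects differ was not tested, and in LK cells each of the 5 lost its call when some single libraries were left out.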

How the results depend on the processing

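The number of genes called depended on how the spread between letters was treated. Against 250 with genotype alone, 1074 were called by DESeq2 (539 higher and 535 lower), 3129 with the letter as a replicate block (1363 and 1766), 474 with the length trend removed (274 and 200), and 3747 with both the block and the length trend removed, an alternative chosen after seeing the data. RLE or protein-coding normalisation, no filter on low counts, limma-voom and removal of ribosomal RNA genes gave counts within 1.5 times. Without both letter B or both letter C libraries 71 and 14 were called, and without 1 library between 33 and 268. The genes also called in the same direction in Ter119neg numbered 171, and 1156 with the letter as replicate block, and between 30 and 191 without 1 library. The log2 fold change of Prmt5 stayed between -2.97 and -2.48 in every fit run, but its call was lost without both letter C libraries (-2.83) and without any 1 of the KO libraries. The causes were not tested, beyond the fewer libraries in such fits.

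Of the 133 genes named with a fold change, 90 were called, and 21 of these stayed called in every fit with 1 library left out. The pairing by letter, used as the block, ended none of these 90 calls and added 36. RLE and protein-coding normalisation ended 1 each, limma-voom 1, no filter 5, and the length trend 5. With 1 library left out some uncalled genes changed sign: Cd34 ranged from -0.053 to 0.60, Lsm4 from -1.13 to 0.22, Mettl23 from -0.98 to 0.19, Myb from -0.025 to 0.17, Rag1 from -0.039 to 5.64 and Tnfsf13b from -3.85 to 0.56. Low counts limit the genes under about 1 CPM in WT, whose fold changes depend on the prior count.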

Other observations

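Several genes with other roles were also called in LK cells and were picked here after their values had been seen. The cytokine Lif, which acts on stem cells of several tissues, was at 3.21, 5.22 and 4.86 CPM in KO libraries A, B and C and 0.379, 0.162 and 0.117 CPM in WT (4.24, edgeR adjusted p = 0.0145). Podxl, a sialomucin of early blood and endothelial cells, was at 51.9, 88.9 and 82.3 CPM in KO and 2.57, 4.46 and 3.73 CPM in WT (4.39, 0.00293). Tert, the catalytic subunit of telomerase, was low but separated, at 2.53, 2.61 and 1.82 CPM in KO and 0.487, 0.162 and 0.496 CPM in WT (adjusted p = 0.0476). The receptor gene Notch3 (4.60), the repressor Hic1 (5.77), the gap junction gene Gja1 (2.53) and the long noncoding RNA Pvt1 (2.36) were higher too. Podxl and Pvt1 kept their calls whichever library was left out. Lif lost its call without KO library A, B or C (adjusted p from 0.0696 to 0.0783), Tert, Hic1 and Notch3 without each library but WT B, and Gja1 without WT library A (0.0691).

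Among lower genes outside the lists, Taf15, an RNA-binding protein of the FET family, was at 27.3, 24 and 35.9 CPM in KO and 90.0, 86.4 and 135 CPM in WT (-1.84, edgeR adjusted p = 0.0279). It was also lower in Ter119neg (-1.48) and Ter119pos (-1.62). Lmnb2, a lamin of the nuclear envelope, was at 48.2, 38.4 and 51.3 CPM in KO and 112, 103 and 104 CPM in WT (-1.21), with -0.96 and -1.11 in the fetal fractions. The desaturase gene Scd1 (-3.07) and Aif1, a calcium-binding protein of macrophages (-3.16), fell further, from WT levels of 4.25, 3.73 and 2.92 CPM for Scd1 and 5.22, 5.19 and 3.47 CPM for Aif1. All 4 lost their calls without KO library A, B or C or WT library A, and Lmnb2 also without WT library C (adjusted p = 0.0733) and without the low count filter (0.0612).

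No WT count was found for 8 of the 159 higher genes and for 10 of all 13771 genes tested. Such a gene passes the low count filter only through its KO counts, so it could not have been called lower. The mitochondrial creatine kinase gene Ckmt1 had 136 counts over the KO libraries and was at least 45.9-fold higher, taking 3 counts over the WT group as the floor. Its call was lost without KO library A, B or C or WT library A (edgeR adjusted p from 0.0843 to 0.108). Ano3, of the anoctamin family, was at least 38.1-fold higher, Svop, a synaptic vesicle protein, at least 33.1-fold and Syt12, a synaptotagmin, at least 17.9-fold. Ano3, Svop and Syt12 lost their calls without each library but WT B. Matn1, a cartilage matrix protein, had 2 WT counts, and the ratio of its levels was 149 with an exact 95% counting interval of 40.8 to 1235. Its call was lost without KO library A or C (edgeR adjusted p = 0.0589 and 0.0611). These bounds and intervals cover counting error only.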
